A study of Mus musculus with 16 samples.

Results

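The genes described here make cholesterol, control its making through the transcription factor SREBP2, and handle its uptake, transfer and esterification. They were taken by symbol from a list of 29 genes, grouped by known function, with earlier results of these data already known, out of 17410 genes in the tables. All 29 were found and all 29 passed the filter on low counts in each comparison. They comprise 4 regulators, 8 enzymes of the mevalonate and isoprenoid steps, 12 enzymes from squalene to cholesterol, and 5 genes of sterol uptake, transfer and ester formation.

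SREBP2, made from Srebf2, is kept as a precursor in the endoplasmic reticulum membrane by its escort Scap and by the retention proteins Insig1 and Insig2. When membrane sterol is low, Scap carries SREBP2 to the Golgi, where proteases release its active part, which enters the nucleus and switches on cholesterol synthesis. When sterol is plentiful, the Insig proteins hold the complex back, and liver, the main organ of cholesterol balance, is known to lower this programme on a cholesterol-rich diet.

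RNA sequencing was done on 16 mouse livers in 4 groups of 4, in a study of ChREBPα, an isoform of the carbohydrate-sensing transcription factor encoded by Mlxipl. Floxed mice (Chrebpα-flox/flox) received AAV-TBG-GFP (WT_NASH, livers 17 to 20) or AAV-TBG-Cre (LKO_NASH, livers 21 to 24). Both groups spent 12 weeks on a NASH diet in which fat gave 40% and fructose 20% of the calories and cholesterol made up 2%. TBG is a promoter active in hepatocytes, so the deletion addresses hepatocytes and both NASH groups carry the floxed alleles. Wildtype mice aged 2 months were put on an HFLMCD diet without choline, in which methionine was added at 0.1% and fat gave 45% of the calories, labelled as 3 weeks. Livers 9 to 12 (Ad_GFP_HFLMCD) came from mice given adenovirus for GFP and livers 13 to 16 (Ad_Chrebpa_HFLMCD) from mice given adenovirus for Chrebpα, 1 week before dissection. Age in the NASH groups, sex, and the promoter in the adenoviruses are not given in the labels.

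Libraries held 21254937 to 40327264 expected counts, and the lowest count of any member in any liver was 15, for Mvd; 25 members had at least 100 counts in every liver. All 10 hepatocyte markers were found, with a summed level of 43940 to 70190 FPKM (sequenced fragments scaled for transcript length and library size) over the 16 livers. Mlxipl, the targeted gene, read 66.1 ± 15.1 FPKM in WT_NASH and 76.4 ± 22.3 in the livers labelled LKO_NASH (SD, n = 4; log2 fold change 0.06, SE 0.24, edgeR adjusted p = 0.916). It read 43.7 ± 4.61 in Ad_GFP_HFLMCD and 46.1 ± 1.41 in the livers labelled Ad_Chrebpa_HFLMCD (log2 fold change 0.15, SE 0.08, edgeR adjusted p = 0.241). The deposited level is per gene, so it does not separate isoforms, and the total of Mlxipl did not bear out either label. On the first principal component of its experiment, liver 21 (LKO_NASH, -27.1) lay among the WT_NASH livers (-41.7 to 3.02) and away from livers 22 to 24 (28.6 to 35.4). Liver 14 (Ad_Chrebpa_HFLMCD, 10.3) lay short of livers 13, 15 and 16 (24.1 to 28.1), with the Ad_GFP_HFLMCD livers at -23.3 to -21.3.

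SREBP2 works at promoters beside NF-Y, which binds the CCAAT box, so RefSeq promoter windows (GRCm38.p6, 250 bases before to 50 after a transcript start) were searched for 3 motifs, each on both strands. The table held 24 of the 29 members; Fdps, Fdft1, Sqle, Stard4 and Soat2 are named only. CCAAT occurred in a window of 22 of these 24 (91.7%), all but Acat2 and Scap, against 41.1% of 27025 genes with a window and 42.9% of 8811 genes with a mean of at least 1 FPKM in these livers. The sterol regulatory element spelled TCACNCCAC occurred in 1 of 24, Hmgcs1, with its first base 137 bases before the start, against 1.44% of all genes. The E-box CACGTG, the core shared by many basic helix-loop-helix factors, occurred in Dhcr7, Hsd17b7, Insig1, Sc5d and Scap. That is 20.8%, against 8.09% of all genes and 12.0% of the 8811 genes with a mean of at least 1 FPKM. No search letters of the 3 motifs contain another. A match describes the letters of a window and is neither a bound site nor a cause, and the absence of a match says only that those letters are not in that window. Stretches upstream of the start follow, 5′ to 3′ in the direction of transcription. They are given for some enzymes with large differences between WT_NASH and Ad_GFP_HFLMCD. They are also given for the members in the promoter table that were called between the Ad_Chrebpa_HFLMCD and Ad_GFP_HFLMCD labels. Capitals mark CCAAT, its reverse ATTGG, and, in Hmgcs1, TCACNCCAC.
Hmgcs1 (chr13:119690102-119690322, plus strand): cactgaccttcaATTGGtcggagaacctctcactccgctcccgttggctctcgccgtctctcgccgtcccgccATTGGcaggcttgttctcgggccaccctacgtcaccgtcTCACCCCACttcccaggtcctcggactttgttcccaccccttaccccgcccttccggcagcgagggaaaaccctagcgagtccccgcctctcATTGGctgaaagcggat
Mvk (chr5:114444084-114444268, plus strand): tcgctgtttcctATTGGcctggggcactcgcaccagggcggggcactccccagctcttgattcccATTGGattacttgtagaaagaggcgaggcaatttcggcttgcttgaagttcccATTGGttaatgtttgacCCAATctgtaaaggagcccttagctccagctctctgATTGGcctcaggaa
Idi1 (chr13:8885549-8885605, plus strand): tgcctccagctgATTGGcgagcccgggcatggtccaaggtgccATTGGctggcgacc
Mvd (chr8:122443433-122443494, minus strand): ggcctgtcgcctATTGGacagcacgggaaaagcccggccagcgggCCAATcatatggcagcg
Nsdhl (chrX:72918400-72918517, plus strand): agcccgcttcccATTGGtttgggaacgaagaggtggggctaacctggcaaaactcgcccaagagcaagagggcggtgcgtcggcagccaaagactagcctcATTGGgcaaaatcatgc
Dhcr7 (chr7:143830117-143830181, plus strand): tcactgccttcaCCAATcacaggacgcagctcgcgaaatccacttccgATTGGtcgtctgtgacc
Insig2 (chr1:121332602-121332737, minus strand): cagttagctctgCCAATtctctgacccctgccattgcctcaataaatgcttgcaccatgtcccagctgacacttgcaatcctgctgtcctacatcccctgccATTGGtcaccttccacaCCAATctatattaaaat

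The largest differences among the members lay between the control groups of the experiments. Against Ad_GFP_HFLMCD, 21 of 29 members were lower in WT_NASH and 4 were higher (edgeR quasi-likelihood test, Benjamini-Hochberg adjusted p below 0.05), where 30.9% of 13488 genes tested were called lower and 28.2% higher (59.1% in all). The log2 fold change was above 0 for 7 of 29 members, where it was for 49.4% of all genes. The median log2 fold change of the members was -1.01, beside -0.01 over all genes. The mevalonate enzymes had a median of -2.21, with 6 of 8 lower, and the enzymes from squalene onward a median of -1.09, with 10 of 12 lower and Ebp higher. These groups are not a comparison named by the study: diet, virus, mouse line, time on the diet and experiment differ together and cannot be told apart. In whole liver, fewer cells of a type and less RNA per cell cannot be told apart either.

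The scale matters for the smaller differences between those control groups. Over all genes the median log2 fold change was -0.44 on log2(FPKM + 1). There no member was called higher, 25 were called lower, and the share of higher genes among all calls went from 47.7% to 6.98%. Scap, Insig2, Ggps1, Tm7sf2, Mylip and Soat2 had a positive log2 fold change in counts scaled by TMM (an edgeR scaling that evens out a few very abundant genes) and a negative one in FPKM, and Ebp was no longer called. Levels below are in FPKM, which allows for gene length; fold changes and tests are on TMM-scaled counts. FPKM of 25 members was lower in each WT_NASH liver than in any Ad_GFP_HFLMCD liver, where 68.9% of genes tested showed the same; no member was higher in every WT_NASH liver, where 4.51% of genes were.

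Within each experiment few or no members were called. Between the livers labelled LKO_NASH and WT_NASH no member was called by edgeR, and none of 12786 genes was (0.00% called; 1737 genes, 13.6%, had an unadjusted p below 0.05, and DESeq2 called 158, 0.704% higher and 0.532% lower, with no member among them). Of the members, 24 of 29 had a positive log2 fold change, where 51.5% of all genes did, and the members' median was 0.32 beside 0.01. Without liver 23 the count was 14 positive and 15 negative, and the median was -0.00. On log2(FPKM + 1) with all 8 livers, 26 of 29 members were positive, where 74.3% of all genes were. The members' median was then 0.28 beside 0.10, so FPKM was higher under the LKO_NASH label for most genes. FPKM groups did not overlap for 2 members, both higher (6.93% of genes higher, 0.673% lower). Between the livers labelled Ad_Chrebpa_HFLMCD and Ad_GFP_HFLMCD, Insig2 and Soat2 were higher and Dhcr7 lower, that is 2 higher and 1 lower of 29, where 4.95% of 13658 genes were called higher and 3.18% lower (8.13% in all). DESeq2 called 3 higher, with Stard4 added, and 1 lower, where it called 8.06% and 6.15% of genes. FPKM groups did not overlap for 2 members higher (4.84% of genes) and 3 lower (14.5%), and the log2 fold change was above 0 for 11 of 29 (47.4% of genes). The share of higher genes among all calls was 60.9% in counts and 30.2% on log2(FPKM + 1), where the same 3 members were called with Mvk added. The members' median was -0.04, beside -0.01 over all genes; without liver 12 it was 0.03. WT_NASH and Ad_GFP_HFLMCD serve as controls within their own experiments and are also compared with each other, so the comparisons are not independent.

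**Figure D1:**
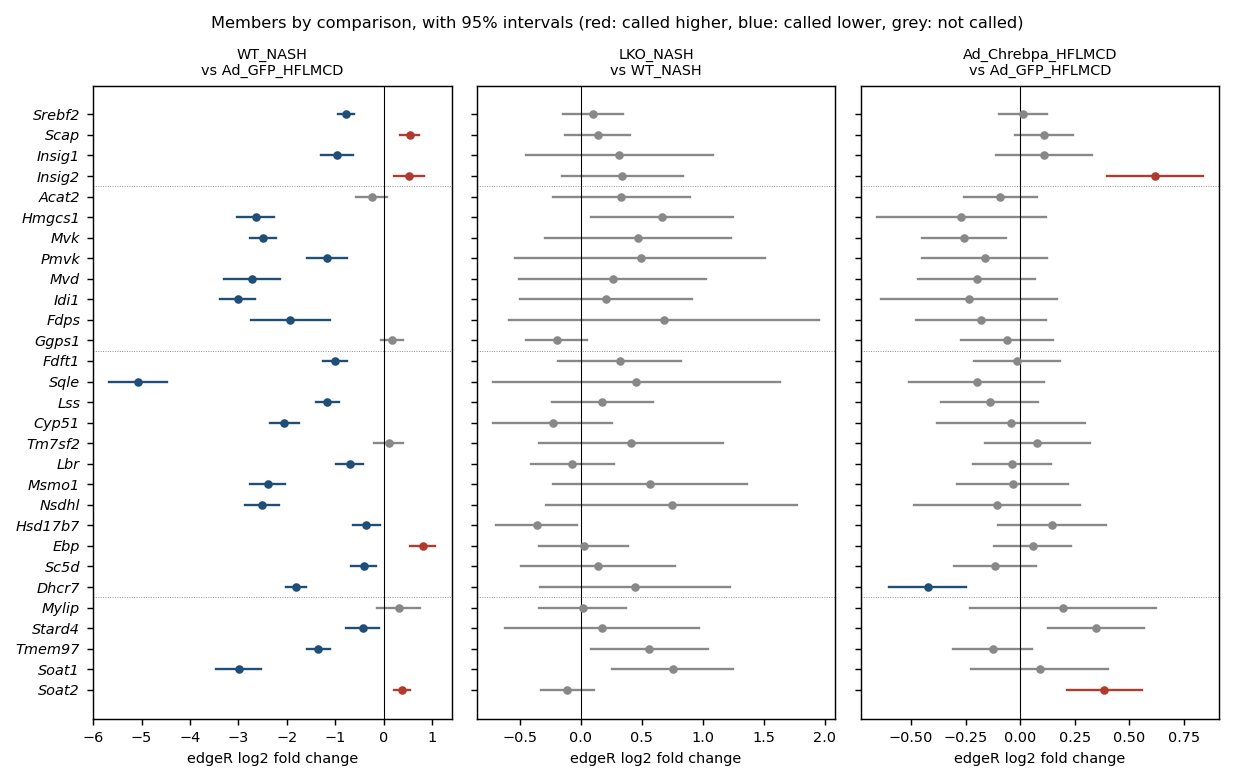
edgeR log2 fold change (x axis) of each of the 29 members (rows, grouped as regulators, mevalonate enzymes, sterol enzymes and sterol handling) in 3 comparisons of 4 livers against 4; points are estimates, lines 95% intervals, red called higher, blue called lower and grey not called. The left panel runs from -5.07 for Sqle to 0.81 for Ebp; no member is called in the middle panel and 3 are in the right panel. In the left panel Scap, Insig2, Ggps1, Tm7sf2, Mylip and Soat2 have the opposite sign on log2(FPKM + 1), and the x axes differ in scale.

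The regulators did not share a direction between the control groups. Srebf2, which encodes SREBP2 and is itself one of its targets, read 18.3, 19.1, 18.6 and 19.3 FPKM in Ad_GFP_HFLMCD livers 9 to 12 and 7.69, 6.70, 6.62 and 7.38 in WT_NASH livers 17 to 20. Every WT_NASH liver was below every Ad_GFP_HFLMCD liver, and the log2 fold change was -0.78 (SE 0.08, edgeR adjusted p = 2.11e-05). It read 17.6, 17.6, 18.0 and 19.0 in livers 13 to 16 labelled Ad_Chrebpa_HFLMCD and 7.98, 7.38, 9.45 and 8.91 in livers 21 to 24 labelled LKO_NASH. Both of these groups overlapped their controls, with a log2 fold change of 0.01 (95% interval -0.10 to 0.12) for the adenovirus, negative (-0.06) on log2(FPKM + 1), and 0.10 (-0.15 to 0.34) for the deletion label.

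Scap, the escort of SREBP2, had overlapping FPKM ranges in both HFLMCD groups and in WT_NASH. It read 27.5, 25.6, 23.9 and 25.6 FPKM in livers 9 to 12 and 26.9, 26.0, 26.1 and 26.5 in livers 13 to 16. The NASH livers read 20.6, 24.6, 26.9 and 24.4 in WT_NASH and 25.2, 28.7, 33.9 and 30.1 under the LKO_NASH label. WT_NASH and Ad_GFP_HFLMCD overlapped in FPKM, while the TMM-scaled log2 fold change was 0.53 (SE 0.09, edgeR adjusted p = 6.72e-04), the opposite sign to the value of -0.09 on log2(FPKM + 1). Neither within-experiment comparison called it, at 0.14 (SE 0.12, edgeR adjusted p = 0.564) for the deletion label and 0.11 (SE 0.06, edgeR adjusted p = 0.273) for the adenovirus.

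Insig1 and Insig2 encode paralogous retention proteins; Insig1 is itself switched on by SREBP2, whereas Insig2 has a liver transcript held down by insulin. Insig1 read 69.6, 66.7, 78.4 and 69.1 FPKM in livers 9 to 12 and 17.4, 27.0, 20.9 and 29.8 in livers 17 to 20, with no overlap (log2 fold change -0.96, SE 0.15, edgeR adjusted p = 3.76e-04). Insig2 read 27.7, 30.7, 35.4 and 37.4 in livers 9 to 12 and 25.2, 35.3, 34.5 and 27.1 in livers 17 to 20, which overlapped. Its log2 fold change was 0.52 (SE 0.14, edgeR adjusted p = 0.00968) in TMM-scaled counts and -0.11 on log2(FPKM + 1). The ratio of Insig1 to Insig2 within a liver was therefore 2.19 ± 0.27 in Ad_GFP_HFLMCD and 0.79 ± 0.21 in WT_NASH (SD, n = 4), a quantity that does not depend on the scaling between libraries.

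Insig2 was the member with the lowest p between the adenovirus groups. Livers 13 to 16 labelled Ad_Chrebpa_HFLMCD read 42.1, 48.8, 48.7 and 52.4 FPKM, each above all 4 Ad_GFP_HFLMCD livers. The log2 fold change was 0.62 (SE 0.10, 1.53-fold, edgeR adjusted p = 0.00778), it was called in each of the 8 fits that left out 1 liver, and with all 16 livers in 1 fit its adjusted p was 0.0811. Insig1 in livers 13 to 16 read 72.5, 60.1, 79.5 and 79.4, overlapping the controls (log2 fold change 0.11, SE 0.10, edgeR adjusted p = 0.520). The within-liver ratio of Insig1 to Insig2 was 1.23 to 1.72 in livers 13 to 16, below the 1.85 to 2.51 of livers 9 to 12.

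Under the LKO_NASH label, Insig2 read 61.9, 35.9, 37.0 and 35.8 FPKM in livers 21 to 24. In FPKM all 4 were above the WT_NASH livers (35.3 at most), 3 of them by little. Liver 21, which lay with the WT_NASH livers on the first principal component, held the highest value. In counts scaled by TMM and library size the groups overlapped. There livers 22 to 24 read 102.7, 109.6 and 96.2, within the WT_NASH range of 82.2 to 116.1. The log2 fold change was 0.34 (SE 0.22, edgeR adjusted p = 0.476), and 0.08 without liver 21. FPKM groups that did not overlap in this direction were seen for 6.93% of genes tested. Insig1 read 13.6, 32.0, 51.3 and 34.1 in the same livers: liver 21 held its lowest value and liver 23 its highest, and the groups overlapped (log2 fold change 0.32, SE 0.34, edgeR adjusted p = 0.644).

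**Figure D2:**
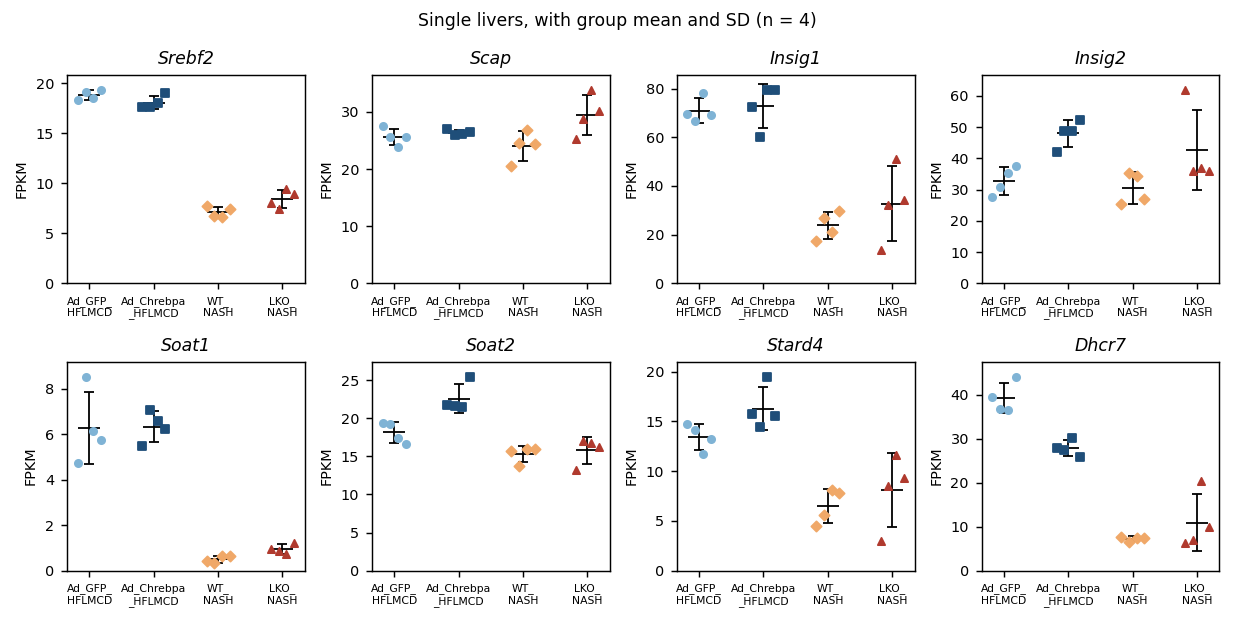
FPKM (y axis, from 0) of 8 members in each of the 16 livers (points), with the mean and SD of each group of 4. Srebf2, Insig1, Soat1, Stard4 and Dhcr7 are lower in both NASH groups than in both HFLMCD groups; Insig2 and Soat2 are higher, and Dhcr7 lower, in all 4 Ad_Chrebpa_HFLMCD livers than in the Ad_GFP_HFLMCD livers.

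Among the mevalonate enzymes, Hmgcs1 makes HMG-CoA and is the member whose promoter held the sterol regulatory element printed above. It read 95.1, 92.6, 93.9 and 141 FPKM in livers 9 to 12, of which liver 12 stood above the rest, and 8.63, 10.3, 12.7 and 12.4 in livers 17 to 20. WT_NASH was 6.26-fold lower (log2 fold change -2.65, SE 0.17, edgeR adjusted p = 2.61e-06). Livers 13 to 16 labelled Ad_Chrebpa_HFLMCD read 76.2, 68.5, 111 and 78.6, lower than livers 9 to 12 except for liver 15 (log2 fold change -0.27, SE 0.17, edgeR adjusted p = 0.354).

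Under the LKO_NASH label, Hmgcs1 read 9.25 FPKM in liver 21, within the WT_NASH range, and 21.1, 24.3 and 22.7 in livers 22, 23 and 24, all above it. This gave a log2 fold change of 0.66 (SE 0.26, unadjusted p = 0.0297, edgeR adjusted p = 0.356). Without liver 21 it was 0.88 (edgeR adjusted p = 0.0239). Hmgcs1 was then 1 of 2 members called of 29, both higher. In that fit 420 of 12975 genes tested were called, 166 higher and 254 lower.

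Mvk phosphorylates mevalonate. It read 16.5, 15.5, 15.2 and 18.2 FPKM in livers 9 to 12 and 1.76, 1.68, 2.29 and 1.75 in livers 17 to 20. The groups were far apart, with the lowest p of any member in that comparison (log2 fold change -2.50, SE 0.12, 5.65-fold lower, edgeR adjusted p = 9.50e-07). Livers 13 to 16 read 11.9, 12.7, 14.9 and 12.8, each below all Ad_GFP_HFLMCD livers, where 14.5% of genes tested showed that pattern; the log2 fold change of -0.26 (SE 0.09) was not called in edgeR (adjusted p = 0.0936) and was on log2(FPKM + 1) (limma adjusted p = 0.0417). The livers labelled LKO_NASH read 1.16, 2.59, 4.34 and 3.50, from below to above the WT_NASH range.

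Mvd, which makes isopentenyl diphosphate, was the member with the fewest counts. It read 9.99, 7.23, 9.19 and 9.64 FPKM in livers 9 to 12 and 1.05, 0.40, 1.23 and 0.78 in livers 17 to 20 (log2 fold change -2.72, SE 0.26, edgeR adjusted p = 1.69e-05). The values were 7.14, 7.68, 8.27 and 6.89 in livers 13 to 16 and 0.99, 1.15, 1.63 and 0.88 in livers 21 to 24, overlapping the controls in both experiments. Neither difference was called, at -0.20 (SE 0.12) for the adenovirus and 0.26 (SE 0.34) for the deletion label.

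Idi1, the isomerase that gives the pathway its second isoprene unit, read 56.7, 54.4, 50.4 and 78.1 FPKM in livers 9 to 12 and 5.03, 3.70, 5.25 and 5.31 in livers 17 to 20. It was 8.06-fold lower in WT_NASH (log2 fold change -3.01, SE 0.16, edgeR adjusted p = 1.32e-06). In livers 13 to 16 it read 43.8, 41.6, 67.8 and 41.0, and in livers 21 to 24 3.85, 4.44, 10.9 and 5.39. Liver 15 and liver 23 stood above the other 3 of their groups, and neither difference was called (log2 fold change -0.24, SE 0.18, and 0.21, SE 0.31).

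Ggps1, which diverts farnesyl diphosphate to geranylgeranyl diphosphate for protein prenylation, was not called in any comparison of 8 livers by edgeR. It read 2.98, 3.44, 2.96 and 3.16 FPKM in livers 9 to 12, 2.69, 2.95, 3.22 and 2.61 in livers 13 to 16, 2.14, 2.24, 2.20 and 2.61 in livers 17 to 20, and 2.30, 2.25, 2.03 and 2.30 in livers 21 to 24. Between the control groups the log2 fold change was 0.17 (SE 0.10, edgeR adjusted p = 0.176) in TMM-scaled counts. It was called higher with all 16 livers in 1 fit (0.23, edgeR adjusted p = 0.0448) and lower on log2(FPKM + 1) (-0.33, limma adjusted p = 0.00308). The other members of this segment are Acat2, which condenses acetyl-CoA, Pmvk, the next kinase after Mvk, and Fdps, which makes farnesyl diphosphate. Acat2 ranged from 25.1 to 30.7 FPKM in Ad_GFP_HFLMCD and from 11.0 to 18.9 in WT_NASH and was not called in counts (log2 fold change -0.25, SE 0.14, edgeR adjusted p = 0.161, and 0.021 without liver 19). Pmvk was 2.25-fold and Fdps 3.80-fold lower in WT_NASH (edgeR adjusted p = 4.46e-04 and 0.00134). Fdps ranged from 10.2 to 37.7 FPKM within WT_NASH, the widest relative spread of any enzyme there (coefficient of variation 62.1%).

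All 8 mevalonate enzymes had a negative log2 fold change under the Ad_Chrebpa_HFLMCD label, from -0.27 to -0.06, and none was called. With liver 15 set aside the Hmgcs1 and Idi1 values were -0.42 and -0.43, and with liver 12 set aside they were -0.09 and -0.07. In the same 8 livers the summed level of the 14 macrophage and Kupffer cell markers was 1303 to 1964 FPKM in Ad_GFP_HFLMCD and 1035 to 1553 under the Ad_Chrebpa_HFLMCD label, and that of 5 cholangiocyte markers 117.5 to 283.6 and 93.4 to 140.0, with 3 of the 5 called lower. Their part in the enzyme values was not tested.

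**Figure D3:**
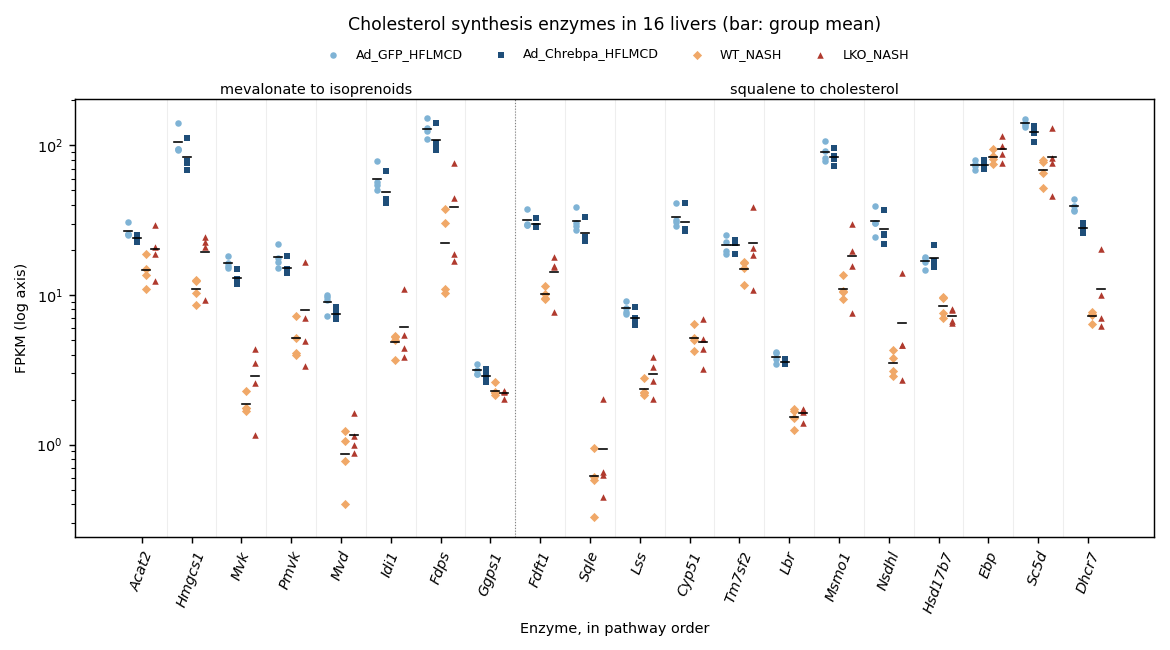
FPKM (y axis, log scale) of the 20 synthesis enzymes in pathway order (x axis); each point is 1 liver and each bar the mean of a group of 4. The NASH groups lie far below the HFLMCD groups for Hmgcs1, Mvk, Mvd, Idi1, Sqle, Cyp51, Msmo1 and Nsdhl, and overlap or exceed them for Ebp.

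Downstream of farnesyl diphosphate, Sqle, the squalene epoxidase and a rate-limiting step of the pathway, showed the largest difference of any member. It read 30.5, 28.9, 27.3 and 38.7 FPKM in livers 9 to 12 and 0.95, 0.58, 0.33 and 0.61 in livers 17 to 20. That is 33.7-fold lower (log2 fold change -5.07, SE 0.27, edgeR adjusted p = 1.32e-06). The values were 23.3, 22.9, 33.4 and 24.5 in livers 13 to 16 and 0.63, 0.45, 2.03 and 0.66 in livers 21 to 24. Livers 15 and 23 were again highest in their groups; the other 3 livers labelled LKO_NASH were within the WT_NASH range (log2 fold change 0.46, SE 0.52, edgeR adjusted p = 0.665, and -0.25 without liver 23).

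Cyp51 removes the C14 methyl group of lanosterol. It read 31.5, 30.8, 28.7 and 41.2 FPKM in livers 9 to 12, 27.5, 26.7, 40.9 and 27.2 in livers 13 to 16, 5.14, 4.24, 5.00 and 6.36 in livers 17 to 20, and 4.39, 3.22, 6.87 and 5.06 in livers 21 to 24. Both within-experiment pairs of groups overlapped, while the control groups did not overlap (log2 fold change -2.05, SE 0.14, edgeR adjusted p = 2.85e-06). It had a negative log2 fold change for the deletion label (-0.23, SE 0.22, edgeR adjusted p = 0.598), unlike 16 of the 20 enzymes.

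Nsdhl, Msmo1 and Hsd17b7 remove the methyl groups at C4. Nsdhl read 30.5, 30.2, 24.4 and 39.2 FPKM in livers 9 to 12 and 2.88, 3.10, 4.32 and 3.78 in livers 17 to 20 (log2 fold change -2.51, SE 0.16, edgeR adjusted p = 2.46e-06). In livers 13 to 16 it read 25.7, 22.0, 37.1 and 25.3, and in livers 21 to 24 2.71, 4.63, 14.1 and 4.60. Liver 23 stood far above the other livers of its label, and the log2 fold change of 0.74 for that label (SE 0.46, edgeR adjusted p = 0.460) was 0.00 without it. Msmo1 was 5.27-fold lower in WT_NASH than in Ad_GFP_HFLMCD (edgeR adjusted p = 2.81e-06).

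Hsd17b7, the reductase of the same complex, differed less. It read 16.6, 14.6, 17.8 and 18.0 FPKM in livers 9 to 12 and 9.56, 7.54, 6.99 and 9.69 in livers 17 to 20 (log2 fold change -0.37, SE 0.12, edgeR adjusted p = 0.0287). The call was lost without liver 9, 11, 12, 18 or 19 (edgeR adjusted p from 0.0599 to 0.0761) and with all 16 livers in 1 fit (0.0649). It read 17.0, 15.5, 21.5 and 16.9 in livers 13 to 16, and 7.88, 6.46, 8.07 and 6.70 in livers 21 to 24. It was the 1 member with an unadjusted p below 0.05 in the lower direction for the deletion label (log2 fold change -0.36, SE 0.15, unadjusted p = 0.037, edgeR adjusted p = 0.358), where 5.88% of genes had one.

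Ebp, the sterol isomerase, was the exception among the enzymes. It read 80.2, 68.5, 73.2 and 74.8 FPKM in livers 9 to 12 and 85.4, 94.5, 80.7 and 74.6 in livers 17 to 20, overlapping. The log2 fold change was 0.81 (SE 0.12, edgeR adjusted p = 2.24e-04) in TMM-scaled counts and 0.17 on log2(FPKM + 1), where it was not called (limma adjusted p = 0.0936). It read 79.8, 69.5, 72.0 and 72.8 in livers 13 to 16 and 75.9, 99.4, 116 and 88.0 in livers 21 to 24. It thus had the highest FPKM of the 20 enzymes in WT_NASH (83.8 ± 8.37), ahead of Sc5d (68.5 ± 12.9), whereas in Ad_GFP_HFLMCD the highest were Sc5d (140.2 ± 7.05) and Fdps (129 ± 17.1).

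Dhcr7, which makes cholesterol from 7-dehydrocholesterol in the last step, was the 1 enzyme called within an experiment. It read 39.6, 36.8, 36.6 and 44.0 FPKM in Ad_GFP_HFLMCD livers 9 to 12 and 27.9, 27.4, 30.3 and 25.9 in livers 13 to 16 labelled Ad_Chrebpa_HFLMCD. All 4 of the latter were lower, also liver 15, which was the highest of its group for most enzymes. Dhcr7 was 1.34-fold lower (log2 fold change -0.42, SE 0.08, edgeR adjusted p = 0.0136), and it was called in each of the 8 fits that left out 1 liver; with all 16 livers in 1 fit the adjusted p was 0.487. Dhcr7 read 7.74, 6.41, 7.35 and 7.43 in livers 17 to 20 (log2 fold change against Ad_GFP_HFLMCD -1.82, SE 0.09, edgeR adjusted p = 1.23e-06) and 6.19, 7.04, 20.4 and 9.97 in livers 21 to 24, where the value of liver 23 was above all others (log2 fold change 0.45, SE 0.34, and -0.08 without liver 23).

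The remaining enzymes were Fdft1, the squalene synthase, Lss, which closes the ring of lanosterol, Tm7sf2 and Lbr, which both reduce the C14 double bond, and Sc5d, the C5 desaturase. Fdft1, Lss and Lbr were lower in WT_NASH by 2.01-fold, 2.24-fold and 1.63-fold (edgeR adjusted p = 5.48e-05, 1.37e-05 and 6.94e-04). Sc5d was 1.33-fold lower (edgeR adjusted p = 0.0123), a call lost with all 16 livers in 1 fit (0.160). Tm7sf2 was not called, at 0.10 (SE 0.13) in TMM-scaled counts and -0.50 on log2(FPKM + 1). The ratio of Tm7sf2 to Lbr within a liver was 5.64 ± 1.15 in Ad_GFP_HFLMCD and 9.77 ± 0.93 in WT_NASH, and its ranges of 4.68 to 7.28 and 9.01 to 11.1 did not overlap.

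The enzymes did not vary alike in each group, and their spread was widest under the LKO_NASH label. In WT_NASH, livers 17 to 20 held the highest FPKM on 2, 4, 9 and 5 of the 20 enzymes. In the other groups a single liver was highest on most enzymes. How often a liver was highest over all genes was not counted. The summed FPKM of the 20 enzymes was 888.2 ± 101.7 in Ad_GFP_HFLMCD, 775.0 ± 99.8 under the Ad_Chrebpa_HFLMCD label, 280.2 ± 29.2 in WT_NASH and 366.7 ± 138.0 under the LKO_NASH label (SD, n = 4). The livers labelled LKO_NASH read 223.4, 327.0, 553.8 and 362.7 FPKM in the order 21 to 24, against 242.2 to 311.1 in WT_NASH. In FPKM liver 21 lay below the WT_NASH livers and the other 3 above. In counts scaled by TMM and library size, the sum of liver 22 (835.7) lay within the WT_NASH range of 745.9 to 843.4. Liver 21 (597.2) was below that range, and livers 23 (1395) and 24 (860.6) were above it. The Ad_GFP_HFLMCD sums were 1548 to 2055 on that scale, relatively nearer to WT_NASH than in FPKM. By FPKM, liver 23 was highest of its group on 18 of 20 enzymes and liver 21 lowest on 14. The median coefficient of variation over the enzymes was 38.5% there and 16.6% in WT_NASH, and liver 23 had the second-lowest depth of all libraries, 21569511 counts.

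In the HFLMCD groups liver 12 was highest on 15 of 20 enzymes, with a sum of 1033 FPKM against 806.5 to 883.0 in livers 9 to 11. Liver 15 was highest on 18 of 20, with 919.1 against 701.0 to 764.0 in livers 13, 14 and 16. Liver 14, which stood apart from its group over all genes, was lowest on 11. The coefficient of variation over the enzymes had a median of 12.8% and 10.8% in these groups. Under the LKO_NASH label the macrophage marker sum was 353.1, 302.4, 146.7 and 361.3 FPKM in livers 21 to 24. The hepatocyte marker sum was 61050, 64650, 61850 and 54160 FPKM in the same order. The part of these cells in the spread of the enzymes was not tested.

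**Figure D4:**
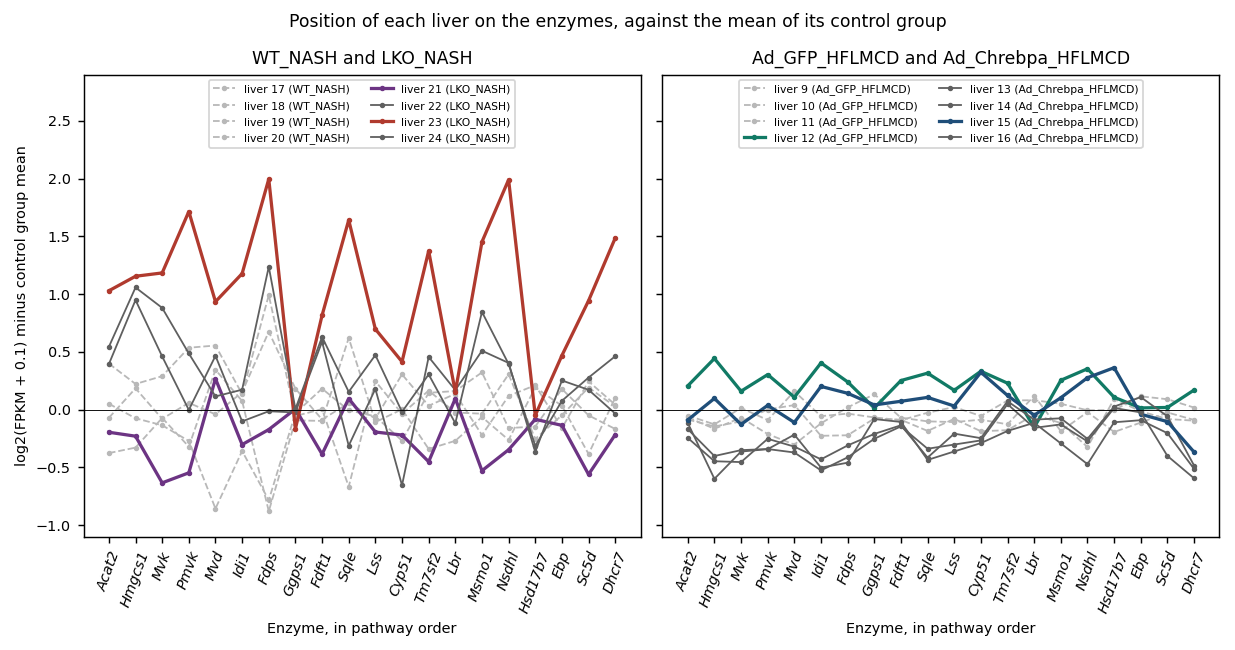
log2(FPKM + 0.1) of each liver minus the mean of its control group (y axis) for the 20 enzymes in pathway order (x axis), NASH livers on the left and HFLMCD livers on the right; control livers other than 12 are dashed, and livers 12, 15, 21 and 23 are coloured. Liver 23 lies above 0 on all enzymes but Ggps1 and Hsd17b7, liver 21 mostly below, and livers 13, 14 and 16 lie below liver 15 on nearly all enzymes.

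Sterol ester formation split between its enzymes. Soat1 is expressed in many cell types, among them macrophages, while Soat2 is the form of hepatocytes and enterocytes. Soat1 read 4.75, 8.51, 6.15 and 5.74 FPKM in livers 9 to 12 and 0.41, 0.34, 0.63 and 0.62 in livers 17 to 20, 7.99-fold lower (log2 fold change -3.00, SE 0.21, edgeR adjusted p = 3.50e-06). Soat2 read 19.4, 19.3, 17.4 and 16.6 in livers 9 to 12 and 15.7, 13.8, 15.9 and 16.0 in livers 17 to 20, lower in FPKM in each WT_NASH liver but with a log2 fold change of 0.38 (SE 0.08, edgeR adjusted p = 0.00180) in TMM-scaled counts. On log2(FPKM + 1) the difference was -0.23 and called lower (limma adjusted p = 0.0212). The ratio of Soat2 to Soat1 within a liver was 3.02 ± 0.77 in Ad_GFP_HFLMCD and 32.5 ± 8.06 in WT_NASH, without overlap.

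Markers of other cells moved with Soat1 between the control groups. Of 14 macrophage and Kupffer cell markers, 12 were called lower and 1 higher in WT_NASH (median log2 fold change -2.28), with a summed level of 109.5 to 230.7 FPKM against 1303 to 1964, and no marker was at 0 in all livers. All 10 hepatocyte markers were called higher (median 1.16; 59080 to 70190 FPKM against 43940 to 54720). Their part in the differences of Soat1 and of the enzymes was not tested.

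Under the LKO_NASH label Soat1 had the lowest p of the members. It read 0.97, 0.87, 0.71 and 1.22 FPKM in livers 21 to 24, each above all WT_NASH livers (log2 fold change 0.75, SE 0.22, unadjusted p = 0.00715, edgeR adjusted p = 0.310, DESeq2 adjusted p = 0.0850). It was not called in any fit that left out 1 liver. All 14 macrophage markers had a positive log2 fold change (median 0.76) and 8 of 10 hepatocyte markers a negative one (median -0.28), none of them called; the macrophage sum was 146.7 to 361.3 FPKM against 109.5 to 230.7, and its part was not tested. In livers 13 to 16 Soat1 read 5.47, 7.05, 6.59 and 6.25, within the range of its controls.

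Soat2 was higher under the Ad_Chrebpa_HFLMCD label. Livers 13 to 16 read 21.8, 21.7, 21.5 and 25.4 FPKM, each above all 4 Ad_GFP_HFLMCD livers, with liver 16 the highest. Soat2 was 1.31-fold higher (log2 fold change 0.39, SE 0.08, edgeR adjusted p = 0.0176), and without liver 16 it was 0.33 (edgeR adjusted p = 0.0510) and not called. Under the LKO_NASH label it read 13.2, 17.0, 16.8 and 16.2, overlapping WT_NASH (log2 fold change -0.11, SE 0.10, and 0.04 on log2(FPKM + 1)).

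Stard4 carries cholesterol through the cytosol to the endoplasmic reticulum. It read 14.7, 14.1, 11.7 and 13.3 FPKM in livers 9 to 12 and 15.7, 14.4, 19.4 and 15.5 in livers 13 to 16, 3 of which were above all controls (log2 fold change 0.35, SE 0.10, edgeR adjusted p = 0.0583). It was called without liver 14 (edgeR adjusted p = 0.0309) and by DESeq2 (0.0174). The NASH livers read 4.50, 5.56, 8.08 and 7.75 in WT_NASH and 2.92, 8.52, 11.6 and 9.28 under the LKO_NASH label, with liver 21 below and the others above the WT_NASH range. Stard4 was lower in WT_NASH than in Ad_GFP_HFLMCD (log2 fold change -0.43, SE 0.15, edgeR adjusted p = 0.0323), a call lost without liver 9, 10, 12, 17 or 18 (0.0608 to 0.0873) and with all 16 livers in 1 fit (0.241).

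Tmem97, the sigma-2 receptor, binds the lysosomal cholesterol transporter and is a known SREBP2 target. It read 104, 98.4, 93.3 and 111 FPKM in livers 9 to 12 and 22.1, 24.3, 31.8 and 25.6 in livers 17 to 20 (log2 fold change -1.35, SE 0.11, 2.55-fold lower, edgeR adjusted p = 7.29e-06). In livers 13 to 16 it read 97.2, 89.5, 87.9 and 80.3, partly below the controls (log2 fold change -0.13, SE 0.08, edgeR adjusted p = 0.353). In livers 21 to 24 it read 24.9, 41.6, 53.0 and 51.1: liver 21 lay within WT_NASH and the other 3 above it. This gave a log2 fold change of 0.56 (SE 0.21, unadjusted p = 0.0255, edgeR adjusted p = 0.356), and 0.74 without liver 21 (edgeR adjusted p = 0.0374). With Soat1 and Hmgcs1, that made 3 members with an unadjusted p below 0.05 in the higher direction, where 7.70% of genes had one.

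Mylip, a ubiquitin ligase that degrades lipoprotein receptors and is a target of the oxysterol receptors LXR, was not called in any comparison of full groups. Its range was 5.17 to 9.54 FPKM in Ad_GFP_HFLMCD, 5.85 to 8.64 under the Ad_Chrebpa_HFLMCD label, 3.71 to 5.99 in WT_NASH and 4.40 to 6.96 under the LKO_NASH label. The value of 9.54 was liver 10, and without that liver the log2 fold change of WT_NASH against Ad_GFP_HFLMCD went from 0.31 to 0.55 in TMM-scaled counts (edgeR adjusted p = 0.00904), with the opposite sign, -0.25, on log2(FPKM + 1) with all livers.

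Counts of genes around the pathway between the control groups depended on the scale; over all genes, 28.2% were called higher and 30.9% lower in TMM-scaled counts, with a median of -0.01, and 4.51% and 68.9% did not overlap in FPKM. Of 19 genes of SREBP transport, cleavage and degradation, 11 were called higher and 1 lower in WT_NASH (median 0.26), while in FPKM 2 were higher and 12 lower in every WT_NASH liver. Among those higher were Syvn1 (1.03, SE 0.11), a ubiquitin ligase of the endoplasmic reticulum, and Sec24d (0.70, SE 0.11), a coat protein of vesicles that leave it. Sec24d read 34.6 ± 5.50 FPKM in WT_NASH and 32.8 ± 2.29 in Ad_GFP_HFLMCD. Of 8 genes of the SREBP1 fatty acid branch, 3 were called higher and none lower (median 0.76), and in FPKM 1 was higher and 1 lower in every WT_NASH liver. The 3 were Scd1, the stearoyl-CoA desaturase (5.82, SE 0.70), Me1, which supplies NADPH (1.90, SE 0.46), and Srebf1 itself (0.95, SE 0.36). Scd1 read 1668 ± 1420 FPKM in WT_NASH and 44.2 ± 10.7 in Ad_GFP_HFLMCD.

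Partners of individual enzymes went both ways. Mmab, which shares a promoter region with Mvk and was listed with acetyl-CoA supply, was lower (log2 fold change -1.38, SE 0.18; 2.06 ± 0.54 FPKM in WT_NASH and 8.25 ± 0.82 in Ad_GFP_HFLMCD), while Acat1, a mitochondrial thiolase of that list of 6, was higher (0.76, SE 0.17). Of 6 helpers of the sterol steps, Por, the electron donor of Cyp51 and Sqle, was higher (1.99, SE 0.15; 471.7 ± 39.8 FPKM against 183.2 ± 28.9), as was Pgrmc1 (0.66, SE 0.14), and Erg28, a scaffold of C4 demethylation, was lower (-0.47, SE 0.10). Of 13 genes of the isoprenoid branches, 5 were called higher and 1 lower (median 0.13), and in FPKM none was higher and 10 were lower in every WT_NASH liver. These 5 included Icmt (0.54, SE 0.06), Rabggtb (0.65, SE 0.09) and Pdss2 (0.55, SE 0.11). In FPKM their levels were close: Icmt read 7.998 ± 0.519 in WT_NASH and 8.50 ± 0.26 in Ad_GFP_HFLMCD, Pdss2 4.00 ± 0.33 and 4.21 ± 0.40, and Rabggtb 18.6 ± 1.35 and 18.2 ± 1.65.

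Sterol disposal and transport genes were called in both directions. Of 12 genes of LXR and oxysterol metabolism, 7 were called higher and 2 lower (median 0.76), and in FPKM 5 were higher and 5 lower in every WT_NASH liver. Those called higher included Cyp7b1 (2.87, SE 0.28) and Cyp27a1 (1.32, SE 0.14), hydroxylases of the alternative bile acid route, and Abcg5 (2.31, SE 0.26), which exports sterol into bile. Of 16 genes of sterol transport and esters, 7 were called higher and 5 lower (median 0.17), and in FPKM 1 was higher and 11 lower in every WT_NASH liver. Lcat, which esterifies cholesterol in plasma lipoproteins, was higher (1.42, SE 0.12), as was Scarb1, the receptor for high-density lipoprotein (0.66, SE 0.10; 128.6 ± 10.4 FPKM against 124.8 ± 3.02), and Npc2, a lysosomal cholesterol carrier, was lower (-1.13, SE 0.09; 13.7 ± 1.78 FPKM against 46.3 ± 4.66). All genes named in these 3 paragraphs passed edgeR's test at an adjusted p below 0.05.

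Under the Ad_Chrebpa_HFLMCD label 4 of 8 genes of the SREBP1 fatty acid branch were called lower and none higher, where 3.18% of all genes were called lower and 4.95% higher. The median of the 8 was -0.45, beside -0.01 over all genes, and Srebf1, Scd1, Me1 and Gpam were not called by edgeR. Srebf1 had a log2 fold change of -0.54 (SE 0.15, edgeR adjusted p = 0.0562) and was called lower by DESeq2 (adjusted p = 0.00764). Its FPKM was lower in each of these livers than in any Ad_GFP_HFLMCD liver, where 14.5% of genes tested showed that pattern. The 4 called lower by edgeR were Fasn, Elovl6, Acaca and Acly. Fasn, fatty acid synthase, read 28.0 ± 5.77 FPKM against 60.0 ± 6.78 (log2 fold change -1.03, SE 0.14). The others were Elovl6, a fatty acid elongase (-0.86, SE 0.12), Acaca, acetyl-CoA carboxylase (-0.57, SE 0.08), and Acly, which makes cytosolic acetyl-CoA for both pathways (-0.35, SE 0.06). Of the 19 SREBP processing genes 3 were called lower, among them Tmem33 (-0.25, SE 0.06) and Ube2g2 (-0.23, SE 0.05), and none was called higher. Of the 8 fits that left out 1 liver, only 3 called Tmem33 and 2 called Ube2g2. Of the 20 cholesterol enzymes, Dhcr7 was the 1 called; the difference between the fatty acid and the cholesterol genes was not tested.

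Sterol disposal and transport genes called under that label were higher, and none was lower, where 4.95% of all genes were called higher and 3.18% lower. These were 4 of the 12 LXR and oxysterol genes, with Abcg8 (1.04, SE 0.17), Abcg5 (0.79, SE 0.15) and Cyp27a1 (0.44, SE 0.07) at the lowest p (median of the 12, 0.28), and 4 of the 16 transport and ester genes (median 0.13), with Lcat (0.55, SE 0.09), Npc1 (0.36, SE 0.07) and Scarb1 (0.30, SE 0.06). Abcg8 read 36.7 ± 8.37 FPKM there and 18.7 ± 2.70 in Ad_GFP_HFLMCD. Por (0.50, SE 0.12) and Rabggtb (0.34, SE 0.09) were also higher. No gene of these lists was called by edgeR between the livers labelled LKO_NASH and WT_NASH, where none of the genes tested was.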

How the data were processed

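RNA of 16 mouse livers, 4 per group, was sequenced as 1 library each. The deposited tables give expected counts (estimated reads per gene, not normalised) and FPKM, both computed by the authors per the file headers. Per the submitters' processing notes the reads were aligned with HISAT2. Its version, the program that counted reads, the build and the gene annotation: not given in the sources used here. Genes absent from a table were taken as 0, and 26 transcript-named entries of 17436 were summed into their genes. The labels do not say that each liver is a separate animal, so the spread behind each p-value is that between deposited samples and may be technical; livers of a group differed by more than counting noise.

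Expected counts were rounded, and the quasi-likelihood test of edgeR 4.0.16 (R 4.3.3; two-sided, TMM scaling, low counts removed by filterByExpr) was applied in 3 fits of 8 libraries, with Benjamini-Hochberg adjustment over all genes tested and calls at an adjusted p below 0.05. Biological coefficients of variation were 0.221 (LKO_NASH against WT_NASH), 0.126 (Ad_Chrebpa_HFLMCD against Ad_GFP_HFLMCD) and 0.164 (WT_NASH against Ad_GFP_HFLMCD). Alternatives were DESeq2 1.42.0, its size factors, other filters, limma 3.58.1 (voom, log2(FPKM + 1) and log2(FPKM + 0.1)), all 16 livers in 1 fit, and leaving out each liver. The fit was also run on simulated counts with 1 spread for all genes and independent livers. That run cannot speak for data in which 1 liver shifts many enzymes, and no call here rests on it. Promoters are RefSeq windows of GRCm38.p6. Tables and plots were made in Python 3.11.15 (NumPy 2.4.6, pandas 2.3.3, matplotlib 3.10.9).

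The members and lists were chosen with earlier results of these data known. Every liver value is given for the 4 regulators, members called within an experiment, and the 4 members with the lowest p in each direction of each comparison; of other lists, up to 3 called genes per comparison with the lowest p are named. Some genes that this rule would name are not reported here.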

Additional observations from a re-analysis of the deposited data

Results flagged for a closer look

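In 15 of 116 sets of 4 livers (29 members in 4 groups) 1 liver lay far from the other 3 by Dixon's test. Chance alone marks about 1 of 20 sets. The members were read in the same livers, so these sets are not independent. Liver 15 (Ad_Chrebpa_HFLMCD) was far above its group for 4 enzymes, Idi1 (67.8 FPKM), Fdft1 (32.9), Sqle (33.4) and Cyp51 (40.9). Liver 12 (Ad_GFP_HFLMCD) was far above for 3, Acat2 (30.7), Hmgcs1 (141) and Fdft1 (37.3). Liver 23 (labelled LKO_NASH) was far above for Sqle (2.03) and Nsdhl (14.1), and liver 21 of the same label for Insig2 (61.9). In WT_NASH, liver 19 was far above for Mvk (2.29) and Lss (2.79), and liver 18 was far below for Soat2 (13.8). Liver 10 (Ad_GFP_HFLMCD) was far above for Mylip (9.54), and liver 16 (Ad_Chrebpa_HFLMCD) for Soat2 (25.4).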

How the results depend on the processing

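Calls of all genes between LKO_NASH and WT_NASH went from 0 to 158 with DESeq2 and 152 with all 16 livers in 1 fit, and from 0 to 420 over fits without 1 liver (420 without liver 21), with 0 to 2 members called higher. Between Ad_Chrebpa_HFLMCD and Ad_GFP_HFLMCD they went from 1110 to 1941 with DESeq2, 336 with all 16 livers, and 400 to 1722 without 1 liver, moving by over 1.5 times without liver 11 (599), 12 (533), 13 (525), 14 (1722), 15 (609) or 16 (400). There, members called higher were 1 (Soat2) with all 16 livers, and 1 to 3 without 1 liver (3, with Stard4, without liver 14; 1 without liver 16). Members called lower were 0 with all 16 livers and 2 (Mvk added) on log2(FPKM + 1) and log2(FPKM + 0.1), which also moved the share of higher calls from 60.9% to 30.2% and 30.1%. Between WT_NASH and Ad_GFP_HFLMCD no member was called higher in the 3 fits on FPKM, where 0 were higher and 25 lower; leaving out 1 liver gave 4 to 5 higher and 19 to 21 lower. With all 16 livers in 1 fit, 5 were higher (Ggps1 added) and 18 lower (Hsd17b7, Sc5d and Stard4 lost).

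Signs turned in FPKM, the values being those on log2(FPKM + 1), equal with no filter, and on log2(FPKM + 0.1): for the deletion label Lbr (0.047 and 0.074) and Soat2 (0.035 and 0.037), for the adenovirus Srebf2 (-0.057 and -0.060) and Ebp (-0.012 and -0.013), and between the control groups Scap (-0.091 and -0.094), Insig2 (-0.11 and -0.11), Ggps1 (-0.33 and -0.43), Tm7sf2 (-0.50 and -0.52), Mylip (-0.25 and -0.29) and Soat2 (-0.23 and -0.24). Without 1 liver, signs turned for 12 uncalled members under the deletion label, with log2 fold changes from -0.098 to 0.11 (Mylip), -0.11 to 0.10 (Ebp), -0.019 to 0.56 (Insig1), -0.18 to 0.73 (Pmvk), -0.25 to 0.36 (Idi1), -0.25 to 0.77 (Sqle), -0.0011 to 0.30 (Lss), -0.035 to 0.63 (Tm7sf2), -0.19 to 0.34 (Sc5d), -0.082 to 0.63 (Dhcr7), -0.085 to 0.44 (Stard4) and -0.15 to 0.024 (Lbr). Under the adenovirus they turned for 7, from -0.081 to 0.0022 (Lbr), -0.016 to 0.25 (Soat1), -0.056 to 0.084 (Fdft1), -0.20 to 0.089 (Cyp51), -0.11 to 0.064 (Msmo1), -0.27 to 0.034 (Nsdhl) and -0.013 to 0.032 (Srebf2), and between the control groups for none. The cause was not tested. No paired analysis was possible because the labels number the livers 9 to 24 and no number is shared between groups. With 4 livers a group and a median coefficient of variation of 38.5% over the enzymes under the LKO_NASH label, differences of the size seen there could not be told from the spread between livers.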
